A study of Mus musculus with 10 samples.

Results

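Dense-core vesicles carry neuropeptides and neurotrophins. The 10 genes described here encode 6 granin-family cargo proteins (Chga, Chgb, Scg2, Scg3, Scg5 and Vgf), 3 enzymes that cut and trim prohormones (Pcsk1, Pcsk2 and Cpe) and 1 protein that primes these vesicles for release (Cadps). They were chosen by symbol from the gene table, where each had 1 row, and they are 10 of its 22255 genes. The libraries came from hippocampal synaptoneurosomes, a tissue fraction enriched in pinched-off synaptic endings, of wild-type C57Bl/6J mice. A vehicle group of 5 libraries was compared with 5 libraries from mice given AM6545, an antagonist of the CB1 cannabinoid receptor that enters the brain poorly, in a sub-chronic schedule. Nothing but the treatment separates the groups in the labels, and the labels name no dose, age, sex or number of animals per library. If libraries shared an animal or a pool, the p-values would measure only the spread between libraries.

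Granins are acidic proteins that aggregate with calcium at low pH in the trans-Golgi network, where they help to form the dense core, and several are themselves cut into bioactive peptides. The prohormone convertases PC1/3 and PC2, encoded by Pcsk1 and Pcsk2, cleave precursors after pairs of basic residues, and carboxypeptidase E, encoded by Cpe, then removes those residues from the new ends. The 7B2 protein, encoded by Scg5, is the chaperone of PC2, and CAPS1, encoded by Cadps, acts at docking and priming of the vesicle before calcium-triggered release. In the hippocampus, mossy fibre endings of dentate granule cells are a known site of dense-core vesicles, and granin immunoreactivity is a usual marker of these organelles.

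Total estimated counts per library ran from 18106112 to 25899794. Markers of hippocampal cells were present in every library, with summed levels of 351 to 507 CPM (counts relative to the library total, scaled by the TMM method) for 8 dentate granule cell genes and 464 to 573 CPM for 5 CA1 pyramidal cell genes. Markers of glia were present as well, such as 5 oligodendrocyte genes that summed to 10030 to 21900 CPM. The 6 choroid plexus markers summed to between 61.9 and 5059 CPM in vehicle libraries and between 655 and 4008 CPM in AM6545 libraries. Of the 6 hypothalamic peptide genes, Oxt, Pmch, Hcrt and Agrp had too few counts to be tested, and the summed level of all 6 ran from 1.49 to 3.07 CPM. In bulk RNA of this kind, fewer structures of a type and less RNA in each cannot be told apart.

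The starts of several of these genes share a short motif, and the stretches that hold it are shown because 6 of the 8 genes with a RefSeq promoter entry carry it close to the transcript start. The motif is the cAMP response element, whose palindrome is TGACGTCA and whose half-site is TGACG, searched on both strands. Each palindrome contains a half-site on each strand. In the stretches of 30 bases below, written 5′ to 3′ along the gene's own strand from the RefSeq table of build GRCm38.p6, capitals mark the palindrome or, where there is none, the half-site.
Chgb, chr2:132781559-132781588, plus strand: gggctgctccgTGACGTCAgggctgagcga
Scg2, chr1:79440076-79440105, minus strand: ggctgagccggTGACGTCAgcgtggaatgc
Pcsk1, chr13:75089768-75089797, plus strand: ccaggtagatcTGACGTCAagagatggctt
Chga, chr12:102554885-102554914, plus strand: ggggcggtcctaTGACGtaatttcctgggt
Scg3, chr9:75684069-75684098, minus strand: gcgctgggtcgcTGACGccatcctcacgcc
Pcsk2, chr2:143546087-143546116, plus strand: ctggcgggcgcgCGTCAcccgggctggcgc
In the Pcsk2 stretch the capitals CGTCA are the half-site as it reads when it lies on the opposite strand.

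The palindrome began 72 bases before the start of Chgb, 68 before that of Scg2 and 78 before that of Pcsk1. It occurred in these 3 of the 8 entries, and in 1.79% of all 32851 promoter entries of 300 bases (250 before and 50 after the start). Within the 100 bases before the start, 1.15% of all entries held it. A half-site within those 100 bases was found in 6 of the 8 and in 10.5% of all entries. In Chga it began 44 bases before the start, in Scg3 30 bases and in Pcsk2 34 bases before it. Over the whole 300 bases, 7 of the 8 had a half-site, against 20.8% of all entries. The Scg5 promoter held its nearest upstream half-site 175 bases before the start and also had matches 20 and 41 bases after it. Cadps had no match in this window. Vgf and Cpe are not among the 8 entries. For 6 of the 8 genes, the first bases of the RefSeq transcript also occur in a GENCODE M21 transcript, the exceptions being Chga and Pcsk2. A match of letters is a description and not a site of binding.

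**Figure D1:**
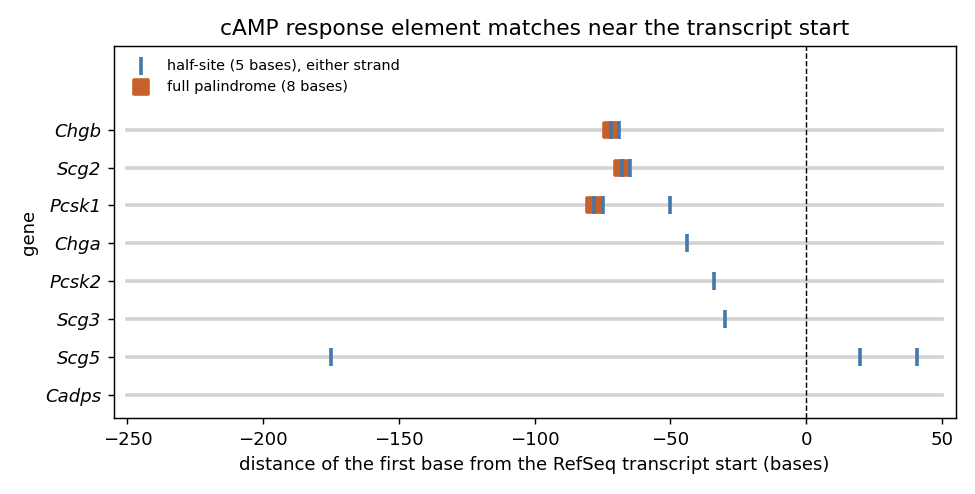
Matches to the cAMP response element in the 8 promoter entries, plotted as the distance in bases of each match's first base from the RefSeq transcript start (dashed line at 0). Squares mark the palindrome of 8 bases and vertical ticks the half-site of 5 bases on either strand; Chgb, Scg2 and Pcsk1 carry the palindrome between 68 and 78 bases before the start, and Cadps has no match.

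In vehicle libraries the genes spanned a wide range of levels. To compare genes, each transcript's count was divided by its length, summed per gene and scaled to a common total over all genes, and every level in this paragraph and the next is on that scale. Cpe stood far above the rest at 7630 ± 753 (SD, n = 5), which was rank 10 of the 22147 genes with a length. Its vehicle libraries read 6725, 7166, 8600, 8151 and 7496. The order of these libraries differs in CPM, given below, where vehicle library 1 was not the lowest of them. Chgb, chromogranin B, was next at 956 ± 228, rank 109, and no vehicle library of Chgb reached the lowest of Cpe. Scg5 followed, below every library of Chgb, at 524 ± 63.2 and Scg2, the secretogranin II precursor of secretoneurin, at 407 ± 49.4. The ranges of Scg5 and Scg2 over the vehicle libraries overlapped, so these neighbours in the order were not separated beyond their spread. Scg3, which links chromogranin A aggregates to the vesicle membrane, came below both without overlap and had 275 ± 24.1 and Chga, chromogranin A, 245 ± 32.0, again with overlapping ranges.

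The remaining 4 genes were lower. Pcsk2 had 78.5 ± 14.2, Vgf, the precursor of several neuroactive peptides, 55.1 ± 13.1, and Cadps 47.4 ± 6.60, and each overlapped its neighbour in this order. Pcsk1 was lowest at 8.56 ± 1.92, rank 8809, and its highest vehicle library, at 9.87, lay below the lowest of Cadps, at 38.8. The mean of Cpe was 161 times that of Cadps, and the mean of Pcsk2 was 9.17 times that of Pcsk1. Cpe made up 74.7% ± 1.20 (SD, n = 5) of the summed level of the 10 genes, and the 6 granins together 24.0% ± 1.24. The inhibitor of PC1/3, proSAAS, is encoded by Pcsk1n, whose level of 155 ± 11.7 was 18.1 times that of Pcsk1. Pam, the enzyme that amidates peptide ends after Cpe has acted, had 25.1 ± 1.6. Dividing the gene count by the longest transcript's length left the order of the 10 genes as it was. It lowered Cadps from 47.4 to 29.9 and raised every other gene, Cpe from 7630 to 9440. The 161-fold gap and the overlap of Cadps with Vgf are therefore given for the first scale only. On that scale Cadps-212, a processed transcript of 1091 bases, made up 26.9% ± 6.47 of the Cadps level in vehicle.

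**Figure D2:**
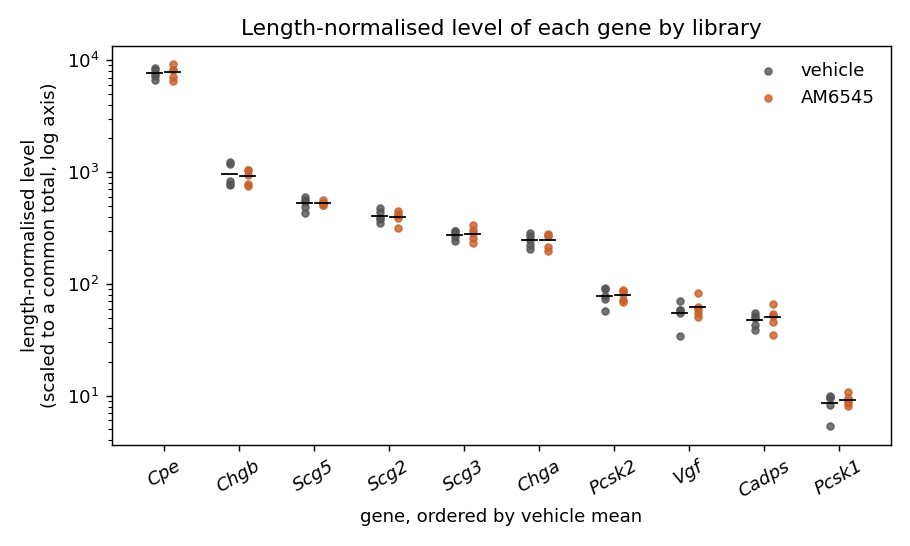
Length-normalised level (scaled to a common total, log axis) of each gene in each of the 5 vehicle (grey) and 5 AM6545 (orange) libraries, with bars at the group means, ordered by the vehicle mean. Cpe lies near 7630 and Pcsk1 near 8.56 in vehicle, and the points of the treatments overlap for every gene.

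The comparison of AM6545 with vehicle asks whether blocking CB1 receptors, with a compound that acts mainly outside the brain, moves these RNAs in the synaptic fraction. None of the 10 genes passed an adjusted p of 0.05 in edgeR's quasi-likelihood test, and none had an unadjusted p under 0.05. All 10 passed the filter on low counts. Over the 14358 genes tested, 0 (0%) passed the adjusted threshold and 270 (1.88%) had an unadjusted p under 0.05. DESeq2's Wald test also called 0 of the 10 and 0 over the whole table, and limma-voom with sample quality weights called 0 of the 10 and 1 over the table. The log2 fold change was above 0 for 4 of the 10 genes and below 0 for 6, and 48.1% of all tested genes lay above 0. The median over the 10 was -0.0088, beside -0.0057 over all tested genes. The adjusted p of every one of the 10 was 0.999828, so each estimate below is given with its interval in place of a p. The 95% confidence intervals of the 10 fold changes had outer ends of 0.734-fold (Chgb) and 1.37-fold (Vgf), and that of Scg3 ran from 0.845-fold to 1.19-fold. For each gene, changes within its own interval were not excluded with 5 libraries a group.

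Chromogranins A and B showed no difference beyond the spread of the libraries. Chga (ENSMUSG00000021194.7) had 275, 178, 266, 281 and 211 CPM in vehicle libraries 1 to 5 and 250, 207, 271, 264 and 184 CPM in AM6545 libraries 1 to 5. Vehicle library 2 and AM6545 library 5 were the low ones, and the groups covered the same range. Its log2 fold change was -0.04 (SE 0.14, 95% interval -0.33 to 0.26). Chgb (ENSMUSG00000027350.9) had 1227, 990.1, 1780, 1722 and 1146 CPM in vehicle libraries and 1415, 1116, 1357, 1459 and 1028 CPM in the AM6545 libraries. Its 2 highest libraries were both vehicle, libraries 3 and 4, and its lowest was vehicle library 2. The fold change of Chgb was -0.11 on the log2 scale (SE 0.16, 95% interval -0.45 to 0.23), and without vehicle library 3 it was 0.0046.

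The secretogranins gave estimates near 0. Scg2 (ENSMUSG00000050711.8) had 498, 429, 566, 609 and 479 CPM in vehicle libraries and 501, 489, 535, 556 and 382 CPM in the AM6545 libraries, with both the highest and the second lowest library in the vehicle group. Its log2 fold change was -0.07 (SE 0.12, 95% interval -0.32 to 0.19). Scg3 (ENSMUSG00000032181.8) had 312, 287, 352, 348 and 293 CPM in vehicle libraries and 313, 296, 389, 345 and 253 CPM in the AM6545 libraries. The highest and the lowest library were both AM6545, and the log2 fold change was 0.0025 (SE 0.12, 95% interval -0.24 to 0.25). The sign of the Scg3 value turned with the scaling, to -0.0024 with DESeq2 size factors.

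Scg5 and Vgf both had an extreme value in vehicle library 1, the highest of all for Scg5 and the lowest for Vgf. The same library was also the lowest in mean log2 CPM of the excitatory neuron, inhibitory neuron and astrocyte markers. Scg5 (ENSMUSG00000023236.8) had 422, 243, 345, 358 and 295 CPM in vehicle libraries and 302, 353, 318, 321 and 318 CPM in the AM6545 libraries. Vehicle held both the highest library, number 1, and the lowest, number 2, while the AM6545 libraries lay close together, with a mean of 322 ± 18.5 CPM against 333 ± 67.4 in vehicle (SD, n = 5 each). For Scg5 the log2 fold change was -0.05 (SE 0.13, 95% interval -0.31 to 0.22), and without vehicle library 1 it was 0.05. Vgf (ENSMUSG00000037428.15) had 51.9, 83.7, 74.8, 79.3 and 76.8 CPM in vehicle libraries and 80.3, 68.2, 80.8, 108.9 and 70.1 CPM in the AM6545 libraries. Vehicle library 1 was the lowest and AM6545 library 4 the highest, and the other 8 libraries of both groups were intermixed. Vgf had the largest estimate of the 10, a log2 fold change of 0.16 (SE 0.14, 95% interval -0.14 to 0.46). That estimate was 0.05 without vehicle library 1 and 0.03 without AM6545 library 4.

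**Figure D3:**
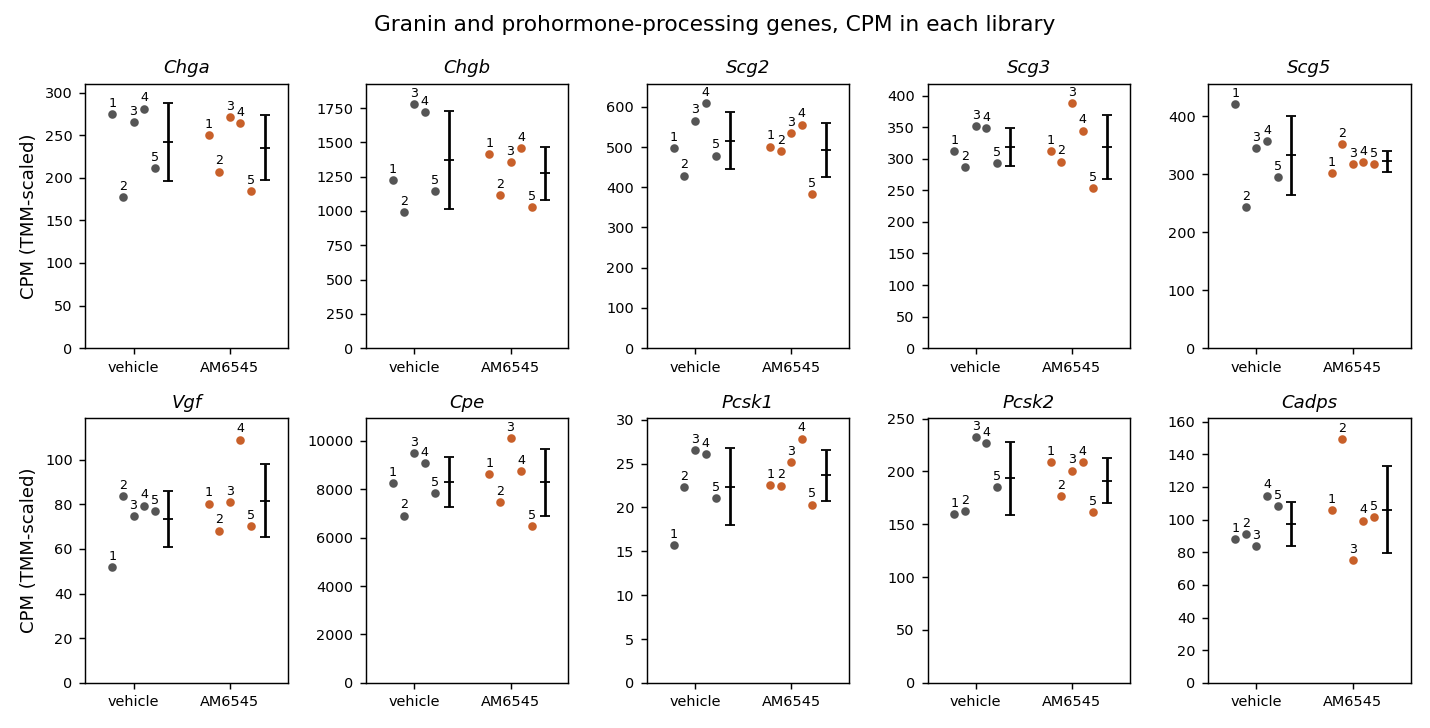
CPM of each of the 10 genes in each library (points, numbered by replicate; grey vehicle, orange AM6545), with the mean and SD of each group of 5 beside the points. The axes start at 0, and the groups overlap for every gene; Vgf in vehicle library 1 (51.9 CPM) lies below the other 4 vehicle libraries.

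The processing enzymes were likewise spread over the same range in both groups. Cpe (ENSMUSG00000037852.9) had 8239, 6911, 9508, 9073 and 7828 CPM in vehicle libraries and 8638, 7479, 10128, 8742 and 6477 CPM in the AM6545 libraries. The highest and lowest libraries were both AM6545, numbers 3 and 5, and the log2 fold change was -0.0033 (SE 0.14, 95% interval -0.29 to 0.29). The sign of that value changed with total count scaling, to 0.0061. Pcsk1 (ENSMUSG00000021587.6), which had the fewest reads of the 10 with 324 to 669 estimated counts a library, had 15.7, 22.3, 26.5, 26.1 and 21.1 CPM in vehicle libraries and 22.5, 22.5, 25.1, 27.8 and 20.3 CPM in the AM6545 libraries. Vehicle library 1 was again the lowest. For Pcsk1 the log2 fold change was 0.08 (SE 0.14, 95% interval -0.20 to 0.37) and, without that library, -0.02. Pcsk2 (ENSMUSG00000027419.10) had 160, 163, 232, 227 and 185 CPM in vehicle libraries and 209, 177, 201, 209 and 162 CPM in the AM6545 libraries, with the highest and the lowest library both in the vehicle group. Its log2 fold change was -0.01 (SE 0.12, 95% interval -0.27 to 0.25). In GENCODE M21, exons of Pcsk2 overlap those of Pcsk2os1 and Pcsk2os2 on the opposite strand. The use of strand in counting is not given in the sources used here, so reads from the overlapping stretches cannot be told apart.

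Cadps (ENSMUSG00000054423.15) had 88.1, 91.2, 83.6, 115 and 108 CPM in vehicle libraries and 106, 149, 75.4, 99.3 and 101 CPM in the AM6545 libraries. AM6545 libraries held both ends of the range, number 2 the highest and number 3 the lowest. That gave a log2 fold change of 0.13 (SE 0.15, 95% interval -0.19 to 0.44), and without AM6545 library 2 it was -0.03. Over all 10 libraries, the SD of log2 CPM ran from 0.18 for Scg3 to 0.29 for Chgb among the 10 genes, beside a median of 0.21 over all tested genes.

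**Figure D4:**
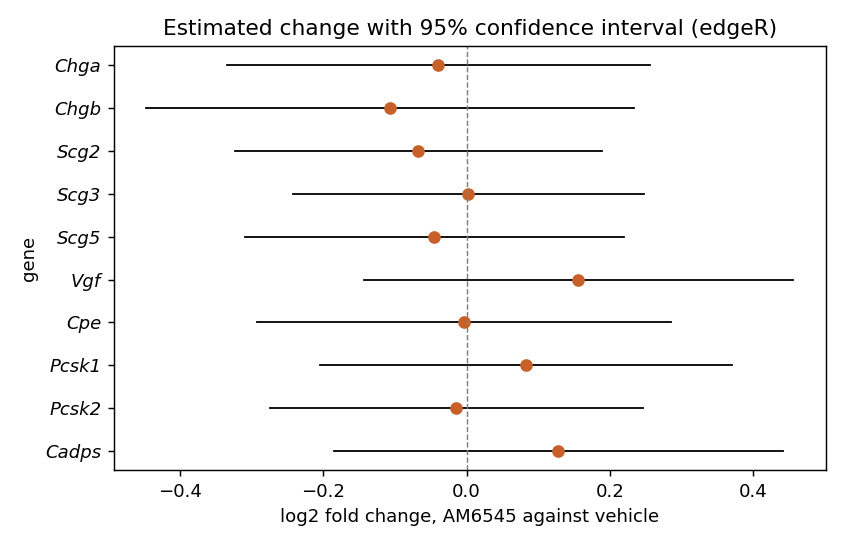
Log2 fold change of each gene, AM6545 against vehicle, from edgeR (points) with its 95% confidence interval (lines); the dashed line marks 0. Every interval includes 0, and the estimates run from -0.11 (Chgb) to 0.16 (Vgf).

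Ratios within a library compare a protease with its partner without the library's scale. They are ratios of CPM, not divided by length, so they differ from the per-length ratios above and are read only between libraries. Such ratios do not remove a difference between libraries that goes with transcript length. Scg5-201 has 1208 bases and Pcsk2-201 4723, and the part of length in these ratios was not tested. Scg5 stood at 2.64, 1.5, 1.49, 1.58 and 1.59 times Pcsk2 in CPM in vehicle libraries 1 to 5, and at 1.45, 1.99, 1.58, 1.53 and 1.97 times in the AM6545 libraries. Vehicle library 1 was apart, and the other 9 libraries of both groups fell between 1.45 and 1.99. Pcsk1n, the proSAAS gene, stood at 13.4, 7.28, 6.23, 6.38 and 8.71 times Pcsk1 in vehicle and at 7.67, 7.69, 9.93, 8.08 and 9.33 times in AM6545. The same library was the highest of all, and the group means of this ratio were 8.40 ± 2.96 and 8.54 ± 1.03 (SD, n = 5). Pcsk2 stood at 8.74 ± 1.02 times Pcsk1 in vehicle and 8.11 ± 0.665 times in AM6545, and Scg2 at 7.24 ± 1.68 and 6.12 ± 0.845 times Vgf. The groups overlapped for all 4 ratios.

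Several of the 10 genes went up and down together from library to library. Pearson's r of log2 CPM over the 10 libraries had a median of 0.488 over the 45 pairs, and 16 pairs (35.6%) reached 0.7. Over all 103068903 pairs of tested genes the median was -0.0033, and 4.22% of pairs reached 0.7. That background includes genes of far lower level than the 10, and pairs of matched level were not compared. The points of each correlation share the library, its depth and its tissue content, so these values are descriptions and carry no test. The libraries of a low joint level were AM6545 library 5 and vehicle library 2, with mean standardised levels of -1.04 and -0.93, and the high ones were vehicle library 4 at 0.90, AM6545 library 4 at 0.68 and vehicle library 3 at 0.67. Both ends of this order therefore held libraries of both treatments.

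A block of 6 genes, picked after the values were seen, carried most of this pattern: Chga, Chgb, Scg2, Scg3, Cpe and Pcsk2. Its 15 pairs had r between 0.673 and 0.965, between 0.530 and 0.989 within the vehicle libraries and between 0.798 and 0.993 within the AM6545 libraries. Leaving out any single library left all 15 at 0.592 or above. High values within the block follow in part from that choice of genes. Scg3 and Cpe were the closest pair, at 0.965, and Chgb and Pcsk2 reached 0.926. Vgf and Pcsk1 went together at 0.828, and at 0.607 without vehicle library 1, in which both were lowest. Pcsk1 also went with Pcsk2, at 0.792. Its r with Chga, Chgb, Scg2, Scg3 and Cpe was 0.251, 0.585, 0.550, 0.571 and 0.488. Without vehicle library 1 these values were 0.825, 0.815, 0.864, 0.859 and 0.782, so leaving Pcsk1 out of the block rests on that library. Scg5 followed Chga at 0.632, and at 0.397 without vehicle library 2. Within groups of 5 libraries that r was 0.936 in vehicle and -0.382 in AM6545. The SD of Scg5 was 67.4 CPM in vehicle and 18.5 CPM in AM6545, and the difference between these r was not tested. Scg5 and Vgf had r = -0.587, and -0.233 without vehicle library 1. Cadps stood apart from the cargo and enzymes over the 10 libraries, with r between -0.424 and 0.0953 against the other 9 genes. With Scg5 it had 0.674 within AM6545 and -0.0919 within vehicle. The value of -0.424, with Scg3, was -0.530 without vehicle library 4 and -0.175 without AM6545 library 3.

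**Figure D5:**
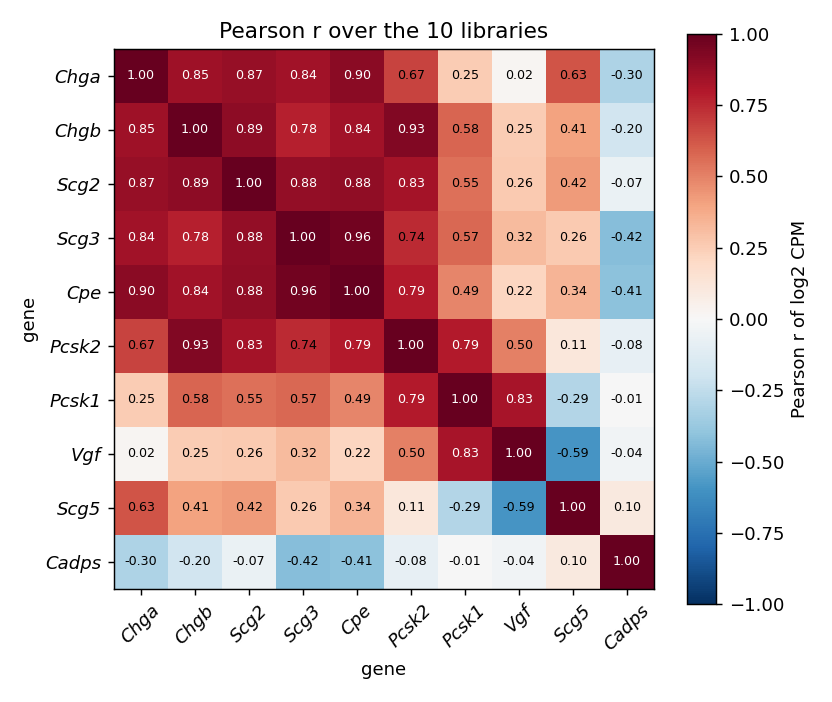
Pearson's r of log2 CPM over the 10 libraries for each pair of genes (colour scale from -1 to 1, value printed in each cell). The block of Chga, Chgb, Scg2, Scg3, Cpe and Pcsk2, picked after the values were seen, has r of at least 0.673 throughout. Pcsk1 has 0.828 with Vgf and 0.792 with Pcsk2, and Cadps lies at or below 0.0953 with every other gene.

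The 5 genes outside the set whose log2 CPM followed the mean standardised level of the 10 most closely over the 10 libraries were Atp1b1 (r = 0.952), Serinc1 (0.946), Nceh1 (0.945), Gpr85 (0.941) and Spock1 (0.939). Atp1b1 encodes the beta subunit of the sodium pump, and its libraries ran from 2770 CPM in AM6545 library 5 to 3603 CPM in vehicle library 4. Marker lists differed in how closely they followed this mean. The mean log2 CPM of 5 microglia markers had r = 0.797 with it, that of 5 CA1 pyramidal cell markers 0.755 and that of 5 excitatory neuron markers 0.552. Endothelial markers went the other way at -0.658, as did the 6 choroid plexus markers at -0.578, while inhibitory neuron markers had -0.281 and the 8 dentate granule cell markers 0.245. Markers of CA2 and CA3 pyramidal cells had 0.135 and those of thalamus -0.157. Oligodendrocyte markers had 0.391, astrocyte markers 0.382, red blood cell markers -0.273 and the 2 tested hypothalamic peptide genes -0.297. Among the pathway's own lists, the other processing enzymes and inhibitors had 0.584 and the vesicle membrane proteins 0.578, while the genes of vesicle biogenesis had 0.0232, those of transport and release 0.0725 and the peptide and neurotrophin cargo 0.148. All 5 microglia markers were above 0 counts in every library, with summed levels of 352 to 427 CPM in vehicle and 323 to 464 CPM in AM6545. The 5 endothelial markers summed to 10.6 to 23.9 CPM in vehicle and 11.9 to 25.96 CPM in AM6545. The part of tissue content in the joint pattern was not tested. The 14 activity-regulated genes, whose transcription follows neuronal firing, had r = -0.0142 with the same mean.

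Transcripts of the 10 genes gave no further call. The transcript table listed 40 of them, of which 6 were at 0 counts in every library and 23 passed the filter. None of the 23 passed an adjusted p of 0.05 in edgeR's quasi-likelihood test, beside 1 of all 31848 transcripts tested (0.00314%). The log2 fold change was above 0 for 11 of the 23 and below 0 for 12, with a median of -0.00045, and 49.5% of all tested transcripts lay above 0. An unadjusted p under 0.05 was found for 1 of the 23, beside 1.97% of all. That was Scg3-205, a scarce transcript with 11, 10, 10, 11 and 14 estimated counts in vehicle and 21, 18, 14, 14 and 19 in AM6545. The counts met at 14, and its log2 fold change was 0.64 (SE 0.27, unadjusted p = 0.0368, adjusted p = 0.999914). Next were Vgf-202, at 1.01 ± 0.883 CPM with vehicle and 2.18 ± 0.970 CPM with AM6545 (SD, n = 5), and Cadps-212, at 7.31 ± 2.05 and 5.91 ± 1.43 CPM. Their log2 fold changes were 1.12 (SE 0.69) and -0.31 (SE 0.23).

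The genes differed in how their level was divided among transcripts. After division by length, Chgb-201 was the only listed transcript of Chgb, and Chga-201, Scg5-201, Pcsk1-201 and Pcsk2-201 each made up at least 99.1% of their gene in the vehicle mean. Cpe-201 held 97.8% ± 0.831 of Cpe in vehicle and 96.6% ± 3.04 in AM6545 (SD, n = 5), and Vgf-201 held 87.4% ± 4.59 and 85.8% ± 1.61 of Vgf. Scg2 was split between Scg2-201, at 55.8% ± 1.62 in vehicle and 58.6% ± 1.92 in AM6545, and Scg2-202. The Scg2-201 share ran from 54.4% to 58.2% in vehicle and from 57.1% to 60.8% in AM6545, so the ranges overlapped. Scg3-202 held 61.1% ± 1.84 and 59.3% ± 3.12 of Scg3. Cadps was the most divided, with Cadps-203 at 33.5% ± 0.735 in vehicle and 36.1% ± 7.15 in AM6545. These shares rest on the authors' assignment of reads that fit several transcripts, and carry no test here.

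Other genes of the same pathway were read from the same fit, and none of them passed the adjusted threshold. Of 10 further processing enzymes and inhibitors, 0 had an unadjusted p under 0.05, and 7 lay above 0 and 3 below, with a median log2 fold change of 0.04. Pcsk1n had the smallest p among them, with 178 ± 20.2 CPM with vehicle and 202 ± 34.0 CPM with AM6545 and a log2 fold change of 0.18 (SE 0.12, 95% interval -0.07 to 0.44). Pam had 47.2 ± 3.69 and 45.5 ± 7.03 CPM, a log2 fold change of -0.05 (SE 0.11). Of 4 vesicle membrane proteins, 0 had an unadjusted p under 0.05, with 2 above 0 and 2 below. Cyb561, the electron carrier that regenerates ascorbate for amidation, had the smallest p of these, at -0.12 on the log2 scale (SE 0.10). The receptor-phosphatase-like proteins of the vesicle membrane gave log2 fold changes of 0.0050 for Ptprn (SE 0.13) and -0.09 for Ptprn2 (SE 0.17). Of 7 genes of vesicle biogenesis, 0 had an unadjusted p under 0.05, 4 lay above 0 and 3 below, and Ccdc186 had the smallest p with a log2 fold change of -0.11 (SE 0.10).

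Among 16 genes of vesicle transport and release, 10 lay above 0 and 6 below, with a median of 0.08. An unadjusted p under 0.05 was found for 1 in each direction, beside 1.88% of all tested genes. The one above 0 was Baiap3, a Munc13-related protein of dense-core vesicle trafficking. Baiap3 had 1.89, 2.37, 1.56, 2.21 and 2.59 CPM in vehicle libraries and 4.43, 4.39, 3.14, 3.58 and 4.65 CPM in the AM6545 libraries. Every AM6545 library of Baiap3 was above every vehicle library, at levels resting on 30 to 114 estimated counts a library. Baiap3 was named for the smallest p of its list, and the share of all tested genes that separate in this way is not given here. For Baiap3 the log2 fold change was 0.92 (SE 0.19, 95% interval 0.52 to 1.32, unadjusted p = 0.000151), and the adjusted p over all genes was 0.999828. The one below 0 was Rab27b, a small GTPase of vesicle docking, with a log2 fold change of -0.22 (SE 0.09, 59.2 ± 2.71 and 50.6 ± 4.39 CPM), which did not pass the adjusted threshold either. Cadps2, the paralogue of Cadps, had 59.3 ± 9.995 CPM under vehicle and 63.2 ± 7.72 CPM under AM6545, a log2 fold change of 0.09 (SE 0.12).

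The peptides and neurotrophins that travel in these vesicles were read as a list of 19 genes, of which 5 lay above 0 and 14 below, with a median of -0.09 and none past the adjusted threshold. The 1 gene of the 19 with an unadjusted p under 0.05, beside 1.88% of all tested genes, was Trh, the precursor of thyrotropin-releasing hormone. Trh had 0.486, 0.190, 0.156, 0.205 and 0.893 CPM in vehicle libraries and 15.2, 0.103, 0.606, 0.832 and 1.04 CPM in the AM6545 libraries. AM6545 library 1 was far above all the others, and the other 4 AM6545 libraries had a mean of 0.645 CPM, within the range of vehicle. The libraries held between 2 and 391 estimated counts of Trh. Bdnf, the neurotrophin released from dense-core vesicles, had 110 ± 15.8 CPM with vehicle and 99.6 ± 5.08 CPM with AM6545, a log2 fold change of -0.14 (SE 0.10, 95% interval -0.36 to 0.08). Of the 14 activity-regulated genes, 6 lay above 0 and 8 below, with a median of -0.08. Fosb, an AP-1 transcription factor, had the smallest p there, with a log2 fold change of -0.70 (SE 0.44, 95% interval -1.62 to 0.22). Its highest library was vehicle library 1 at 2.28 CPM, the library that was also lowest for Vgf and Pcsk1 and highest for Scg5.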

How the data were processed

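Total RNA of hippocampal synaptoneurosomes was extracted with an RNeasy kit, per the labels' protocols, which also name a SMARTer kit for small amounts of RNA. The deposited tables hold estimated counts, 1 table for genes and another for transcripts; Salmon 1.5.2 and mm10 are named in the submitters' processing notes, without their roles. The annotation release and the use of strand are not given in the sources used here. Of the deposited gene values, 38.6% were not whole, so the estimated counts were rounded before testing. No 2 libraries held identical columns.

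Symbols matched 22155 of 22255 gene identifiers, and GENCODE M21 gave names and lengths for 101527 of 102392 transcripts. Genes and transcripts were each tested in all 10 libraries with edgeR 4.0.16 (R 4.3.3): TMM scaling, filterByExpr (minimum count 10, minimum total 15), group as the only term, robust quasi-likelihood dispersions, two-sided tests and Benjamini-Hochberg adjustment over all features tested, with a threshold of 0.05. The procedure was tested on simulated data. Log2 CPM for correlations used a prior count of 2. DESeq2 1.42.0, limma 3.58.1 (voom with sample quality weights), other scalings and filters, a choroid plexus covariate, removal of mitochondrially encoded genes and leaving out each library were the alternatives. Python 3.11.15 was used for summaries.

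The 10 genes and all lists were chosen with earlier results of these data known, and the promoter motif after the files were seen, so none of them is independent support. Genes named outside the 10 were fixed partners (Pcsk1n, Pam, Cadps2, Ptprn, Ptprn2, Bdnf), up to 2 per list and direction past the adjusted threshold or else the gene of smallest unadjusted p, and the 5 genes most correlated with the set; Rab27b was named after its value was seen. Transcripts named were the most abundant of each gene and the 3 of smallest unadjusted p. Intervals cover the spread between libraries. Of the 31-base words in the transcripts of the 10 genes, 0.959% were shared with other genes for Chga, 2.20% for Pcsk2 and 0.0391% for Cadps, and none for the other 7 genes.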

Additional observations from a re-analysis of the deposited data

Results flagged for a closer look

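Among 30 groups of 5 libraries, 3 held a library apart from the others by Dixon's 95% criterion, where chance gives 1.5. Vgf in vehicle library 1 had 51.9 CPM, while the other 4 vehicle libraries had 74.8 to 83.7 CPM. Scg5 in that library was 2.64 times Pcsk2, while the other 4 vehicle libraries had ratios of 1.49 to 1.59. Extremes in vehicle library 1 were not confined to these genes. Its mean log2 CPM was the lowest of all for excitatory neuron, inhibitory neuron and astrocyte markers, other processing enzymes and inhibitors, and transport and release genes. It was the highest for peptide and neurotrophin cargo, and at neither end for the other marker and pathway lists. In AM6545 library 1, Pcsk2 was 9.26 times Pcsk1, while the other 4 AM6545 libraries had ratios of 7.51 to 7.99.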

How the results depend on the processing

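None of the 10 genes passed an adjusted p of 0.05 under any of 19 other settings; the smallest adjusted p was 0.915 and the smallest unadjusted p 0.113. The sign of the log2 fold change turned in 28 of 190 such fits, 22 of them with a library left out, and for Vgf in none. Voom with quality weights gave 0.0427 for Chga, 0.0263 for Scg5 and 1 called gene over the whole table (706 at an unadjusted p under 0.05, against 433 without the filter and 270 in the main analysis). Scg3 was at -0.0024 with DESeq2 size factors, -0.0024 with DESeq2's Wald test and -0.0070 with the replicate block, and Cpe at 0.0061 with total count scaling. Leaving out each library gave ranges of -0.132 to 0.0370 for Chga, -0.204 to 0.0046 for Chgb, -0.127 to 0.0117 for Scg2, -0.0781 to 0.0750 for Scg3, -0.139 to 0.0548 for Scg5, 0.0303 to 0.215 for Vgf, -0.0851 to 0.0738 for Cpe, -0.0190 to 0.151 for Pcsk1, -0.0752 to 0.0607 for Pcsk2 and -0.0251 to 0.229 for Cadps, and 0 to 1 called genes over the whole table, with 165 to 578 at an unadjusted p under 0.05. Over all transcripts 1 was called, against 11 with DESeq2's Wald test, 0 with at least 10 counts in every library, 0 with the replicate block and 0 to 4 with a library left out, and none of these was a transcript of the 10 genes. With any vehicle library left out, no transcript of the 10 genes had an unadjusted p under 0.05. The median r between the 10 genes ran from 0.397 (without vehicle library 2) to 0.607 (without vehicle library 1). Same-numbered libraries deviated together with r of -0.14, -0.186, 0.232, 0.393 and 0.0646, and 3 of 5 correlated best with their own number, a hint from the data and not from the design. Since the labels give no shared source and 3 of the 5 values were not over 0.1, the numbers were not taken as pairs, and pairing is unsettled; the replicate block called 0 genes. The causes of these differences were not tested. The lowest count of any of the 10 genes in a library was 324.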
